A study of Mus musculus with 3 samples.

Results

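Transcripts of 10 transcription factors that set or keep the mast cell lineage (Gata1, Gata2, Mitf, Spi1, Tal1, Runx1, Cebpa, Stat5a, Stat5b and Zfpm1) were followed in bone-marrow-derived mast cells (BMMCs), the cultured mast cells that grow out of bone marrow progenitors. The members are the non-control spots whose gene name in the scanner files is one of these symbols, which gave 15 probes of 60 bases for 10 genes, out of 39429 probes for 31093 gene names. The BMMCs came from 12-week-old male mice on a C57BL/6 background that lack Pafah2, a phospholipase A2 that cuts oxidised fatty acids from phospholipids. All 3 groups carry this deficiency, and no wild-type array was used. The first group received omega-3 epoxides, a mixture of 17,18-EpETE and 19,20-EpDPE in the ratio 2 to 3 at 300 nM. The second received GW9662, which blocks the nuclear receptor PPAR gamma, at 0.5 µM, and the control group received the vehicle DMSO. Treatment lasted 12 h, and each group was read on 1 one-colour microarray from 200 ng of total RNA. With 1 array a group there were no replicates, so no test was possible and the error between cultures is unknown. The labels do not say how many mice gave each culture or which part of Pafah2 was removed.

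Mast cells arise from progenitors in which GATA factors, the basic helix-loop-helix factor MITF and the ETS factor PU.1 (the product of Spi1) act on the same regulatory elements of genes for the IgE receptor, Kit and the granule proteases. The balance between factors sets the lineage in mice: high PU.1 favours macrophages, C/EBP alpha favours basophils over mast cells, and FOG-1 (the product of Zfpm1) binds GATA factors and holds back the mast cell fate. STAT5A and STAT5B carry the survival signal of interleukin 3 and stem cell factor.

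The probe sequences define what each reading can see. The Spi1 probe is shown because the files give it no place in the genome, so that its letters are its only address. Spi1 lies on chromosome 2 in the RefSeq gene table.
Spi1 probe: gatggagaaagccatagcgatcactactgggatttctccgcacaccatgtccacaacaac
The other 14 probes have coordinates in the files on the mm9 build, given below with each gene. The files name a transcript for each probe but no exon or UTR. RefSeq (GRCm38.p6) promoter windows ran from 250 bases before to 50 bases after an annotated start. They were found for 9 of the 10 genes, Spi1 being the exception, 16 windows in all. They were searched on both strands for AGATAA and TGATAA, forms of the site bound by GATA factors, which differ in their first letter, so no stretch of sequence counts for both. AGATAA was in 1 of the 16 windows and in 11.2% of all 32851 windows, and TGATAA was in 2 of the 16 and in 9.05% of all. The 3 windows with a match are printed because they are the member windows that hold either form, with the match in capitals (TTATCT and TTATCA are AGATAA and TGATAA on the opposite strand).
Tal1, chr4:115056176-115056475, plus strand: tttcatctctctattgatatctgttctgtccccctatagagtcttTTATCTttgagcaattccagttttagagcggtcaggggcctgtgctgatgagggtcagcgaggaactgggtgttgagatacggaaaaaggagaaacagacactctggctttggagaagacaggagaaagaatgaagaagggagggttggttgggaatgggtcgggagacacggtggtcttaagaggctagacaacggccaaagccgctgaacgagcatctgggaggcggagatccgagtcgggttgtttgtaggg
Mitf, chr6:97929567-97929866, plus strand: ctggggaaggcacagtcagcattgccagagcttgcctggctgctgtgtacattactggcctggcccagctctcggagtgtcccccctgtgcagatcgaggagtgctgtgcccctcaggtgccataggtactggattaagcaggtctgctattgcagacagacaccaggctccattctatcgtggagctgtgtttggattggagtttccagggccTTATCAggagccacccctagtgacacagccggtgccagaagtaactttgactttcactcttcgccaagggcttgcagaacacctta
Mitf, chr6:97991533-97991832, plus strand: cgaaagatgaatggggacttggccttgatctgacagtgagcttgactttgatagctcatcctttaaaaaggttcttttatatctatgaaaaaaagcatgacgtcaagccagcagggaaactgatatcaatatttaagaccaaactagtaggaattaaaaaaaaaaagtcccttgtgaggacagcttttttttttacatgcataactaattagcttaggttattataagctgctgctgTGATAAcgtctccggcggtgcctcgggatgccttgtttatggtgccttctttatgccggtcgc
The Tal1 match lies 205 bases before the start, and the Mitf matches lie 36 and 13 bases before their starts. The windows of Gata1 and Gata2 themselves held neither motif. A match describes letters only, and the arrays do not measure binding.

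A level is the log2 of a probe's processed signal after division by the 75th percentile of its array's non-control spots, and a ratio is the difference of a pair of levels. Of 43020 non-control spots, 52.3% to 54.6% were well above background on the 3 arrays and none was saturated. The dimmest spot still called well above background had a level of -5.57 on the epoxide array, -5.03 on the GW9662 array and -4.84 on the vehicle array. Copies of a probe within an array gave a technical SD of a log2 ratio, median over 219 probes, of 0.0430 between epoxides and vehicle, 0.0370 between GW9662 and vehicle and 0.0349 between epoxides and GW9662. For copies with levels below 0 these SDs were 0.0791, 0.0787 and 0.0681 in the same order of comparisons. They cover spot error and not culture, labelling or hybridisation. Copies disagreed more in one band of the array. Among spots of probes with at least 5 copies, those in the band of rows after 180 up to 400, of 532 rows, differed at least 2-fold from their probe's median in 6.47% of cases on the epoxide array, 9.23% on the GW9662 array and 7.37% on the vehicle array. Outside this band the shares were 1.21%, 0.301% and 0.258% in the same order of arrays. Readings from it are called readings in the uneven band, and 7 of the 15 member probes lie there. Because ratios also moved with base composition, values are given where useful after a GC correction, in which a quadratic fit to the GC content and mean signal of the probes was taken out of each array. Pafah2 itself was read at -0.08 on the epoxide array, 0.07 on the GW9662 array and 0.03 on the vehicle array, which without a wild-type array checks nothing.

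The treated arrays cannot be assigned with certainty. In the authors' deposited value table, the values listed for epoxides are those of the scanner file attached to GW9662, and those listed for GW9662 come from the file attached to epoxides, while vehicle has its own. The names used below follow the scanner files. If the table is right, each value given for the epoxide array belongs to GW9662 and each value for the GW9662 array belongs to epoxides.

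The cultures carried mast cell transcripts, while several defining markers of other lineages were not above background and other markers of those lineages were. Of 8 mast cell markers, 7 were well above background on all 3 arrays, among them Kit (5.68 on the epoxide array, 5.75 on the GW9662 array and 5.73 on the vehicle array) and Fcer1a, the IgE-binding receptor chain (6.59, 6.83 and 6.93 in the same order). The exception was Tpsab1. Summed over the list as multiples of the 75th percentile, these markers came to 430, 494 and 552 on the epoxide, GW9662 and vehicle arrays. The neutrophil list (5, 5 and 4 of 11 above background) summed to 5.67, 6.61 and 6.09 in that order, with Ltf, S100a8 and S100a9 not above background on any array. The macrophage list (5 of 8 above background on each array) summed to 18.5, 15.7 and 17.4, without Lyz2 or C1qa. The erythroid and megakaryocyte list (7, 6 and 6 of 10) summed to 26.1, 26.5 and 28.2, without Klf1. The basophil list (4 of 5 on each array) summed to 18.3, 18.2 and 18.3. The lymphocyte list (2, 4 and 3 of 8) summed to 1.49, 2.58 and 2.56, without Pax5. The eosinophil list (1 of 6 on each array) summed to 0.497, 0.462 and 0.454, without Epx or Prg2. Markers of other lineages that read above the 75th percentile on every array included the platelet receptor gene Gp1ba (4.37 on the epoxide array, 4.398 on the GW9662 array and 4.47 on the vehicle array) and the macrophage marker Cx3cr1 (4.07, 3.81 and 3.97 in the same order). Ctsg was at 2.11, 2.21 and 2.05 in that order, Itga2b at 1.88, 1.77 and 2.02, Elane at 0.22, 0.66 and 0.73, and Cd4 at 0.08, 0.49 and 0.64. The part of other cells in the ratios below was not tested, and in these bulk samples fewer cells of a type and less RNA per cell cannot be told apart.

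Of the 10 factors, 9 were well above background on every array, the exception being Cebpa. Of the 15 probes, 12 lay above the 75th percentile on every array, and the others were those of Spi1 and Cebpa and 1 of Zfpm1. No probe was marked as an outlier on any array, and each was present as 1 spot. The plot of probe levels by array shows how close the 3 readings of each probe lie.

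**Figure D1:**
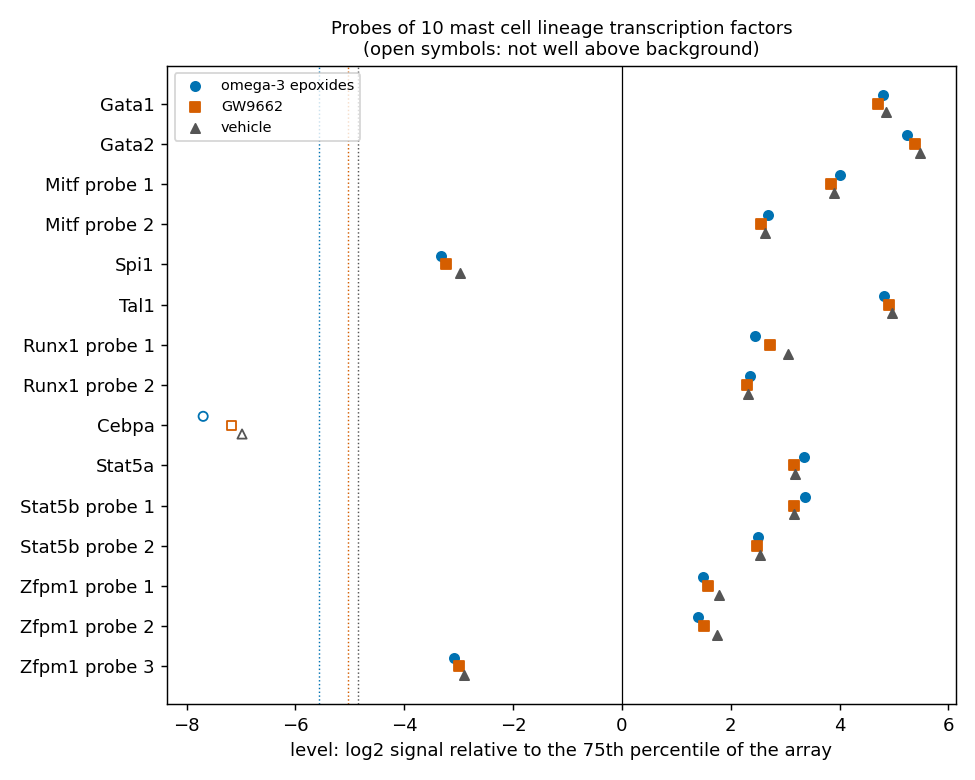
Level of each of the 15 member probes on the epoxide, GW9662 and vehicle arrays (log2 of signal over the array's 75th percentile, 1 symbol per array). Dotted lines mark the dimmest spot of each array still above background, and only Cebpa, drawn with open symbols, lies left of them.

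Gata2, the GATA factor required in mast cell progenitors and in mature mast cells, was read at 5.25 on the epoxide array, 5.39 on the GW9662 array and 5.47 on the vehicle array (mm9 chr6:88156362-88156421). Its log2 ratio was -0.22 with epoxides over vehicle, -0.08 with GW9662 over vehicle and -0.14 for epoxides over GW9662. The vehicle array was highest and the epoxide array lowest, a difference of 1.17-fold. The epoxide ratio was -0.08 after the GC correction, -0.08 with cyclic loess and -0.03 with quantile normalization. Gata1, which acts later in mast cell maturation, was read at 4.80 on the epoxide array, 4.72 on the GW9662 array and 4.85 on the vehicle array (mm9 chrX:7536392-7536451). Its ratios were -0.06 with epoxides over vehicle, -0.14 with GW9662 over vehicle and 0.08 for epoxides over GW9662. For Gata1 the GW9662 array was lowest, and the epoxide ratio was within 2 technical SD of 0 and was positive with quantile normalization, with cyclic loess and after the GC correction.

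Tal1, a basic helix-loop-helix partner of GATA factors in a shared complex, was read at 4.82 on the epoxide array, 4.91 on the GW9662 array and 4.97 on the vehicle array (mm9 chr4:114744219-114744278). The ratios were -0.14 with epoxides over vehicle, -0.06 with GW9662 over vehicle and -0.09 for epoxides over GW9662. Both treated arrays were lower than vehicle, and the epoxide ratio was -0.031 after the GC correction, -0.015 with cyclic loess and -0.0045 with quantile normalization. Partners of this complex were named for that role after their values were seen. Lyl1, a close relative of Tal1, was at 5.19 on the epoxide array, 5.42 on the GW9662 array and 5.48 on the vehicle array. Lmo2, the bridging protein, was at 1.89, 2.06 and 1.92 in the same order, and Ldb1, its binding partner, at 0.57, 0.75 and 0.88.

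Zfpm1 was read by 3 probes, and 2 of them overlap by 55 bases and do not count as separate readings. The brighter of these (mm9 chr8:124861092-124861151) was at 1.49 on the epoxide array, 1.58 on the GW9662 array and 1.79 on the vehicle array. Its ratio was -0.30 with epoxides over vehicle and -0.20 with GW9662 over vehicle, and the overlapping probe (mm9 chr8:124861087-124861146) gave -0.36 and -0.25. The probe for a predicted transcript (mm9 chr8:124861353-124861412) was at -3.08 on the epoxide array, -2.99 on the GW9662 array and -2.91 on the vehicle array, with ratios of -0.17 and -0.08. Before the GC correction all 3 probes were thus highest with vehicle and lowest on the epoxide array. After it their ratios for epoxides over GW9662 were 0.080, 0.078 and 0.104, so the epoxide array was no longer lowest. The probe for the predicted transcript then came to 0.085 with epoxides over vehicle. Its uncorrected GW9662 ratio of -0.08 was near the technical SD of 0.0787 for copies with levels below 0. All 3 probes lay in the uneven band.

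Mitf, the factor whose loss leaves mice short of mast cells, was read by probes 2728 bases apart. The brighter (mm9 chr6:97971229-97971288) was at 4.01 on the epoxide array, 3.85 on the GW9662 array and 3.89 on the vehicle array. The other (mm9 chr6:97968501-97968560) was at 2.68, 2.56 and 2.63 in the same order. Both probes were highest on the epoxide array and lowest on the GW9662 array. The ratios were 0.12 and 0.05 with epoxides over vehicle, -0.04 and -0.08 with GW9662 over vehicle, and 0.16 and 0.12 for epoxides over GW9662. Of these, the 0.05 of the dimmer probe and the -0.04 of the brighter probe were within 2 technical SD of 0. The difference between these probes, 0.07 for epoxides over vehicle, was matched or exceeded in 82.7% of the 3353 genes with at least 2 measured probes. The brighter probe lies in the uneven band, and without that band and after the GC correction Mitf came to -0.06 for epoxides over vehicle. Of the related genes of the same family, Tfe3 was at 2.22 on the epoxide array, 2.12 on the GW9662 array and 2.16 on the vehicle array, while Tfec was not above background on any array.

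Spi1 was dim but above background, at -3.32 on the epoxide array, -3.24 on the GW9662 array and -2.97 on the vehicle array. Both treated arrays were lower, with a ratio of -0.35 for epoxides over vehicle (1.27-fold lower) and -0.27 for GW9662 over vehicle (1.20-fold lower). Its only probe lies in the uneven band, and its epoxide ratio was 0.05 after the GC correction. Cebpa was not well above background on any array (mm9 chr7:35906517-35906576), with measured levels of -7.70 on the epoxide array, -7.17 on the GW9662 array and -6.98 on the vehicle array. All 3 lie below the lowest level called above background, so they have no order and no ratio is given. Of the other C/EBP genes on the list, Cebpb was at 1.89 on the epoxide array, 1.64 on the GW9662 array and 1.63 on the vehicle array, and Cebpd at 0.44, 0.31 and 0.37, while Cebpe was not above background.

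Runx1, the DNA-binding core factor of blood cell formation, had the largest ratios among the members and the least settled ones, since its probes disagreed. The brighter probe (mm9 chr16:92605785-92605844) was at 2.45 on the epoxide array, 2.72 on the GW9662 array and 3.06 on the vehicle array. That is a ratio of -0.61 for epoxides over vehicle (1.52-fold lower), -0.34 for GW9662 over vehicle (1.27-fold lower) and -0.27 for epoxides over GW9662. The other probe (mm9 chr16:92604413-92604472), 1372 bases away, was at 2.35, 2.30 and 2.32 on the epoxide, GW9662 and vehicle arrays. It gave ratios of 0.03, -0.01 and 0.04 for the same 3 comparisons, all within 2 technical SD of 0. Both probes lie outside the uneven band. The gap between them was 0.63 for epoxides over vehicle, and 8.20% of the 3353 genes with at least 2 measured probes had as large a gap. For GW9662 over vehicle it was 0.33, as large as in 8.67% of 3344 genes. The probes are assigned to different Runx1 transcripts, and the part of that in the gap was not tested. Cbfb, which encodes the partner that steadies RUNX proteins on DNA and is named for that role after its values were seen, was at 3.88 on the epoxide array, 3.97 on the GW9662 array and 4.09 on the vehicle array. The related Runx3 was at 0.95, 0.74 and 0.67 in the same order, and Runx2 was not above background.

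Stat5a and Stat5b are neighbouring genes with closely related products, and their probes share no run of letters longer than 7. Stat5a (mm9 chr11:100746373-100746432) was at 3.34 on the epoxide array, 3.17 on the GW9662 array and 3.19 on the vehicle array. The brighter Stat5b probe (mm9 chr11:100642045-100642104) was at 3.37 on the epoxide array, 3.15 on the GW9662 array and 3.15 on the vehicle array. On these probes the epoxide array stood above the others, with ratios over vehicle of 0.15 for Stat5a and 0.22 for Stat5b, while GW9662 over vehicle gave -0.02 and -0.0006. The second Stat5b probe (mm9 chr11:100642187-100642246) was at 2.50 on the epoxide array, 2.48 on the GW9662 array and 2.53 on the vehicle array. Its epoxide ratio of -0.04 did not share the sign of the brighter probe, and both Stat5b probes lie in the uneven band. After the GC correction the ratios for epoxides over vehicle were 0.06 for Stat5a, 0.21 for the brighter Stat5b probe and -0.15 for the second.

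**Figure D2:**
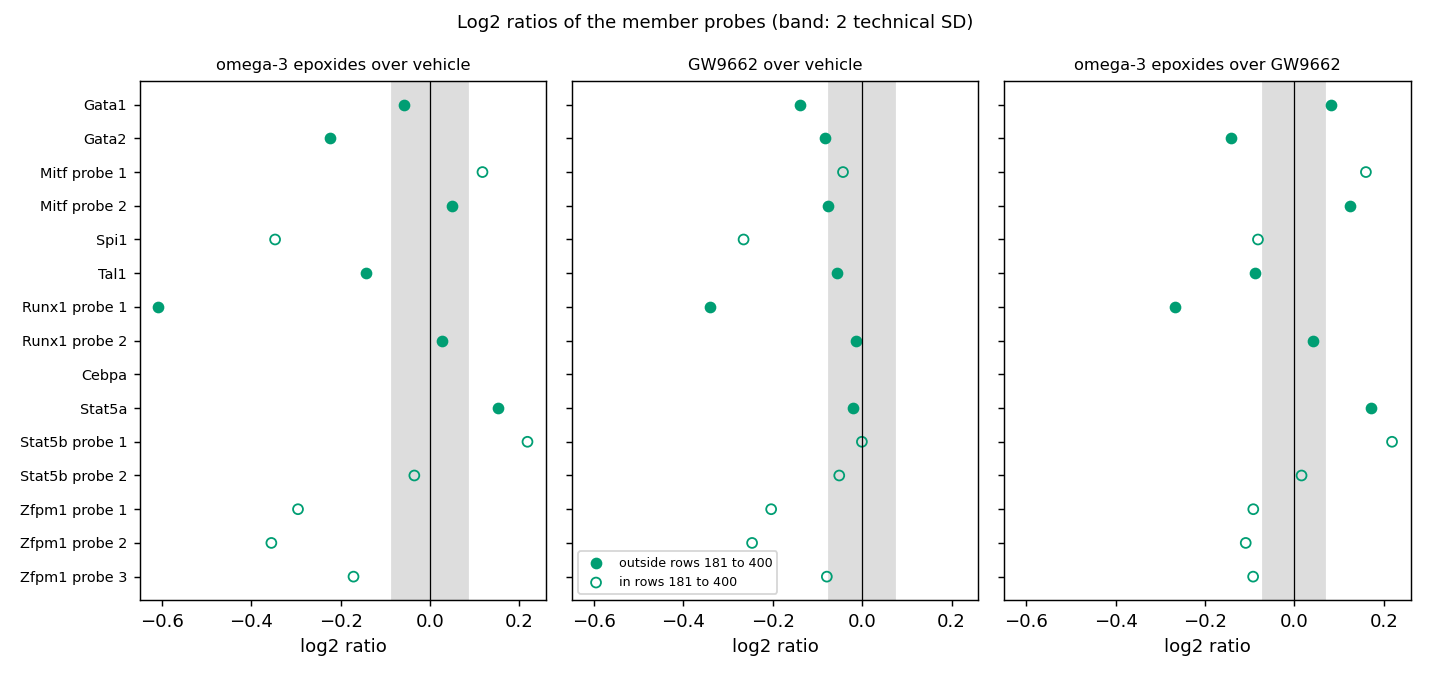
Log2 ratios of the 14 measured member probes for each pair of arrays, with open symbols for probes in the uneven band of rows and a grey band of 2 technical SD on each side of 0. Runx1 probe 1 lies farthest from 0 in the comparisons with vehicle, at -0.61 and -0.34, while Runx1 probe 2 lies inside the band.

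The first comparison asked what the lineage factors did when cells without Pafah2 were given omega-3 epoxides. Of the 9 measured members, 3 had positive and 6 negative ratios, from -0.61 for Runx1 to 0.22 for Stat5b, and the median of -0.14 stood beside a median of -0.07 over all 15812 measured genes, of which 61.1% were below 0. No member was 2-fold apart, against 2.28% of all genes. At 1.5-fold the count was 1, Runx1 lower, against 10.2% of all genes in either direction and 8.84% lower. Runx1 was under 1.5-fold with normexp (-0.54), with cyclic loess (-0.55), with scaling on detected probes (-0.58), as the mean of its probes (-0.29) and after the GC correction (-0.31, with or without the uneven band). The ratio was beyond 2 technical SD in 8 of the 9 members and in 73.9% of all genes. These shares put the members near the background of this pair of arrays.

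The second comparison asked the same for the PPAR gamma antagonist. All 9 measured members had ratios below 0, from -0.34 for Runx1 to -0.0006 for Stat5b, with a median of -0.08 beside -0.02 over 15795 genes, of which 57.8% were below 0. All 14 measured probes were below 0 as well. No member was 2-fold apart, against 0.823% of all genes, and none was 1.5-fold apart, against 1.84%. The ratio was beyond 2 technical SD in 5 members (Gata1, Gata2, Spi1, Runx1 and Zfpm1) and in 53.3% of all genes. The sign held for every member except Stat5b in each alternative that keeps the labels of the scanner files. This comparison and the one with epoxides share the vehicle array, so that a high reading of a probe on that array lowers both ratios.

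Between the treatments, 4 of 9 members were higher and 5 lower on the epoxide array than on the GW9662 array, from -0.27 for Runx1 to 0.22 for Stat5b. The median was -0.08, beside -0.06 over 16044 genes, of which 61.1% were below 0. No member was 2-fold apart, against 1.16% of all genes, or 1.5-fold apart, against 5.73%. Mitf (0.16), Stat5a (0.17), Stat5b (0.22) and Gata1 (0.08) had positive ratios under every alternative that keeps the labels of the scanner files. The negative ratios of Gata2, Spi1, Tal1 and Zfpm1 changed sign with at least 1 such alternative. For Stat5b there were 7 alternatives, since both its probes lie in the uneven band and leaving out the band gave no value. Its dimmer probe gave 0.02 for epoxides over GW9662, and -0.07 after the GC correction. The epoxides and GW9662 are different agents given at different doses, so their values stand side by side.

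Member ratios ran with the base composition of the probes. Over the 14 measured member probes, with GC contents of 35% to 58.3%, the Pearson correlation of ratio and GC content was -0.886 for epoxides against vehicle, -0.890 for GW9662 against vehicle and -0.776 for epoxides over GW9662. The points share the same arrays, and several share a gene. Over all measured probes it was -0.488 (n = 19863), -0.210 (n = 19827) and -0.418 (n = 20200) in the same order of comparisons. The correlation over the member probes after the GC correction was -0.463, -0.747 and -0.040 in that order. A correlation with GC content thus remained among the members in the comparisons with vehicle, and its cause was not tested. The brighter Runx1 probe has 58.3% G and C and the other 41.7%. After the correction the gap between the Runx1 probes was 0.374 for epoxides over vehicle, as large as in 18.5% of genes, and 0.245 for GW9662 over vehicle, as large as in 13.5%. The part of base composition in that gap was not tested. The 3 members with the most negative ratios over vehicle, Runx1, Spi1 and Zfpm1, were read by the probes with the highest GC content.

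Set beside all measured probes of like GC content, most member ratios for epoxides over vehicle were ordinary. Of the 14, 10 lay between the quartiles of their 5-point GC bin, 3 below and 1 above. Runx1 probe 1, at -0.61, lay below the first quartile of its bin (-0.52, median -0.34 over 1794 probes). Gata2, at -0.22, lay below that of its bin (-0.19, median -0.05 over 3755 probes), and the dimmer Stat5b probe also lay below. The brighter Stat5b probe, at 0.22, lay above the third quartile (0.19). Spi1 and the 3 Zfpm1 probes lay between the quartiles.

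For GW9662 over vehicle, 7 of the 14 probes lay below the first quartile of their GC bin, 7 between the quartiles and none above. The 7 were Gata1, Spi1, Runx1 probe 1, the overlapping Zfpm1 probes and the dimmer probes of Mitf and Stat5b. Runx1 probe 1, at -0.34, stood against a first quartile of -0.18 and a median of -0.10 over 1795 probes. Spi1, at -0.27, stood against a first quartile of -0.16 and a median of -0.09 over 1667 probes. After the GC correction, Runx1 probe 1 came to -0.31 with epoxides over vehicle and -0.25 with GW9662 over vehicle, Spi1 to 0.05 and -0.17, and Zfpm1 to -0.06 and -0.14. The correction also takes out a trend with mean signal, and the parts of GC content and signal in these shifts were not separated. All 14 GW9662 ratios were still below 0 after this step, with the remaining correlation with GC content of -0.747 given above. For epoxides over GW9662, 7 of the 14 probes lay above the third quartile of their GC bin and 7 between the quartiles. Those above were Gata1, Spi1, Stat5a, the overlapping Zfpm1 probes and the brighter probes of Mitf and Stat5b. A low reading on the GW9662 array lowers GW9662 over vehicle and raises epoxides over GW9662, so these counts are not independent.

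**Figure D3:**
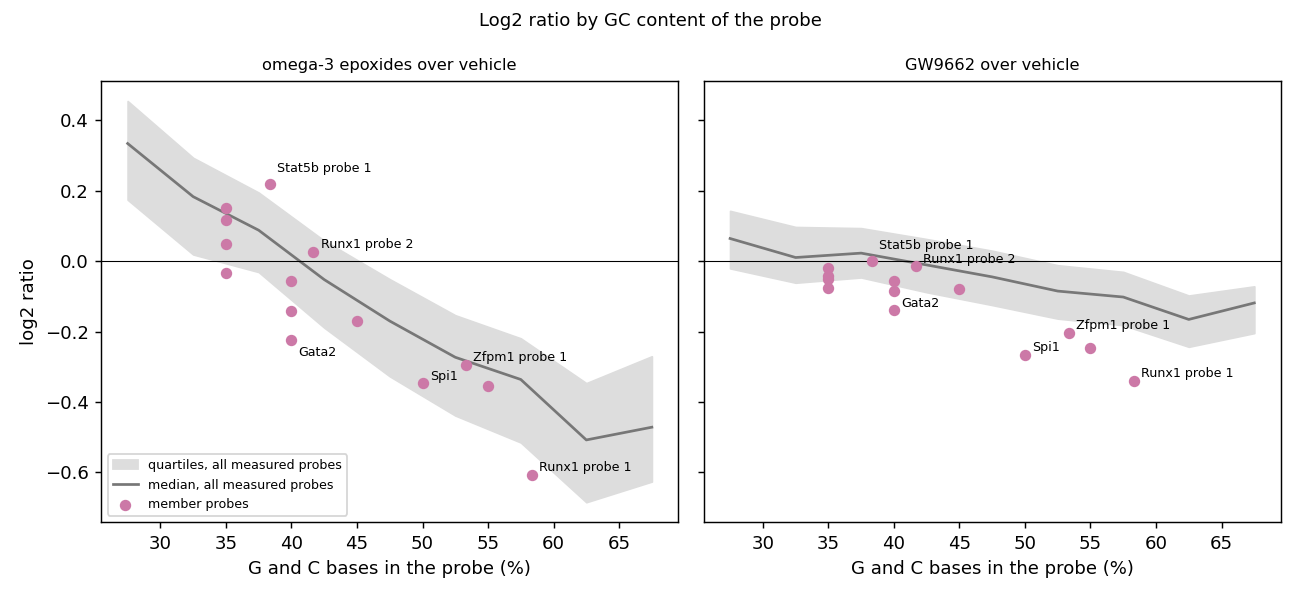
Log2 ratio over vehicle of the 14 measured member probes against the GC content of the probe in percent. The grey line and band give the median and quartiles of all measured probes in 5-point bins, drawn at the bin centres, and the member probes follow the downward slope, with Runx1 probe 1 at -0.61 and -0.34 below the band.

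Genes that the factors are known to act on showed small ratios as well. Of 25 mast cell genes regulated by GATA factors, MITF or PU.1, 22 were measured. For epoxides over vehicle 20 of them were below 0, beside 61.1% of all genes (median -0.21, beside -0.07). For GW9662 over vehicle 17 were below 0, beside 57.8% of all genes (median -0.10, beside -0.02), and none was 2-fold apart in either. Cpa3, the granule carboxypeptidase, was at 6.93 on the epoxide array, 7.19 on the GW9662 array and 7.61 on the vehicle array. Its ratios of -0.68 and -0.42 over vehicle were the farthest from 0 in this list. Csf2rb, the shared receptor chain of interleukin 3, was at 6.82, 7.13 and 7.22 in the same order, but the near-identical Csf2rb2 was at 7.19, 7.11 and 7.21, and the probes may not separate these paralogs. Kit had ratios of -0.05 with epoxides over vehicle and 0.03 with GW9662 over vehicle. After the GC correction the median of this list was -0.06 with epoxides over vehicle and -0.03 with GW9662 over vehicle.

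Of 18 target genes of STAT5, 16 were measured against vehicle. For epoxides 4 ratios were above 0 and 12 below (median -0.15), and for GW9662 3 were above and 13 below (median -0.15), with none 2-fold apart. Of all genes 61.1% were below 0 for epoxides and 57.8% for GW9662. The targets were not split by whether STAT5 raises or lowers them, so these counts give no direction of STAT5 activity. The epoxide median of this list was -0.076 after the GC correction, -0.054 with quantile normalization and -0.047 with cyclic loess. Osm, a cytokine induced through STAT5, was at 0.33 on the epoxide array, 0.20 on the GW9662 array and 0.69 on the vehicle array. Socs3, a feedback inhibitor of cytokine receptors, was at 2.76, 2.54 and 2.97 in the same order. Cish, an early STAT5 target, was at 4.99, 5.03 and 5.16, and Bcl2l1, a survival gene, at 3.60, 3.40 and 3.44. The genes that act upstream of STAT5 had 9 of 13 ratios below 0 for epoxides over vehicle (median -0.15) and 10 of 13 for GW9662 over vehicle (median -0.08), beside the same 61.1% and 57.8% of all genes. They pool receptors and kinases with phosphatases, so these counts give no direction of signalling. The epoxide median of this list was 0.027 after the GC correction and 0.125 with the uneven band left out as well. Jak2, the kinase that serves the interleukin 3 receptor, was at 2.63 on the epoxide array, 2.70 on the GW9662 array and 2.62 on the vehicle array. Csf2rb, Csf2rb2, Il3ra and Kit are in both of the lists for mast cell genes and upstream signalling, and Id1 is in both the STAT5 list and the next.

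Of 42 other transcription factors of blood cells, 31 were above background on all 3 arrays and 9 on none, among them Irf8, a macrophage and dendritic cell factor, and Klf1, the erythroid factor. For epoxides over vehicle 17 of the 31 ratios were above 0, beside 38.9% of all genes (median 0.06), which set this list on the other side of 0 from the member median of -0.14, a difference that was not tested. That median was -0.10 without the uneven band and -0.002 after the GC correction. For GW9662 over vehicle 12 of 31 were above 0, beside 42.2% of all genes (median -0.04). Id3, an inhibitor of E proteins, was at -0.85 on the epoxide array, -0.80 on the GW9662 array and -0.29 on the vehicle array, in the uneven band. Hes1, a Notch target, was at -3.65, -4.59 and -4.14 in the same order, with a ratio of 0.94 for epoxides over GW9662. Its level is near the lowest called above background and its probe has 26.7% G and C. Gfi1, a transcriptional repressor in blood progenitors, was at 0.54 on the epoxide array, 0.08 on the GW9662 array and 0.27 on the vehicle array.

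**Figure D4:**
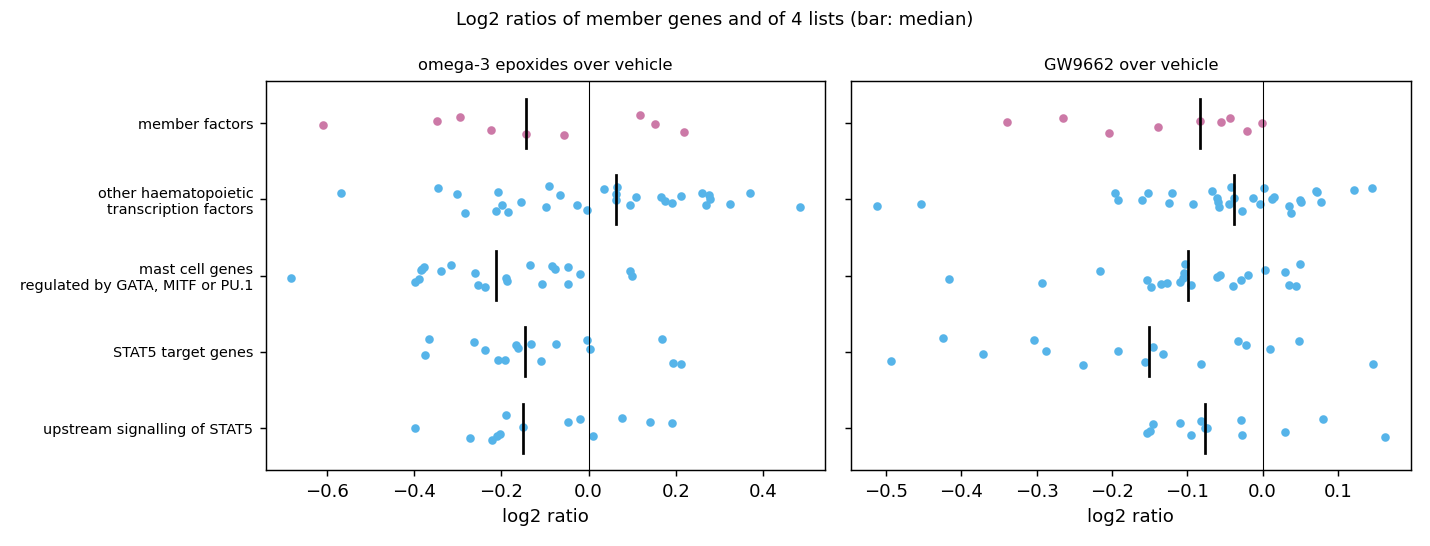
Log2 ratios over vehicle of the 9 measured member genes and of the measured genes of 4 lists (1 point per gene, black bar at the median). Members and lists overlap throughout, with member medians of -0.14 for epoxides and -0.08 for GW9662.

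Several member ratios moved with the processing. For epoxides over vehicle Runx1 ranged from -0.61 to -0.29 over 9 alternatives, the last being the mean of its probes, and Zfpm1 from -0.30 to -0.06 over 7. Stat5b ranged from 0.09 to 0.29 and Stat5a from 0.06 to 0.22. For GW9662 over vehicle Runx1 ranged from -0.34 to -0.18 and Spi1 from -0.27 to -0.17. In the authors' deposited table the columns give Runx1 -0.34 for the sample labelled epoxides and -0.61 for the sample labelled GW9662, both over vehicle. Stat5b there has -0.001 for epoxides and 0.22 for GW9662.

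**Figure D5:**
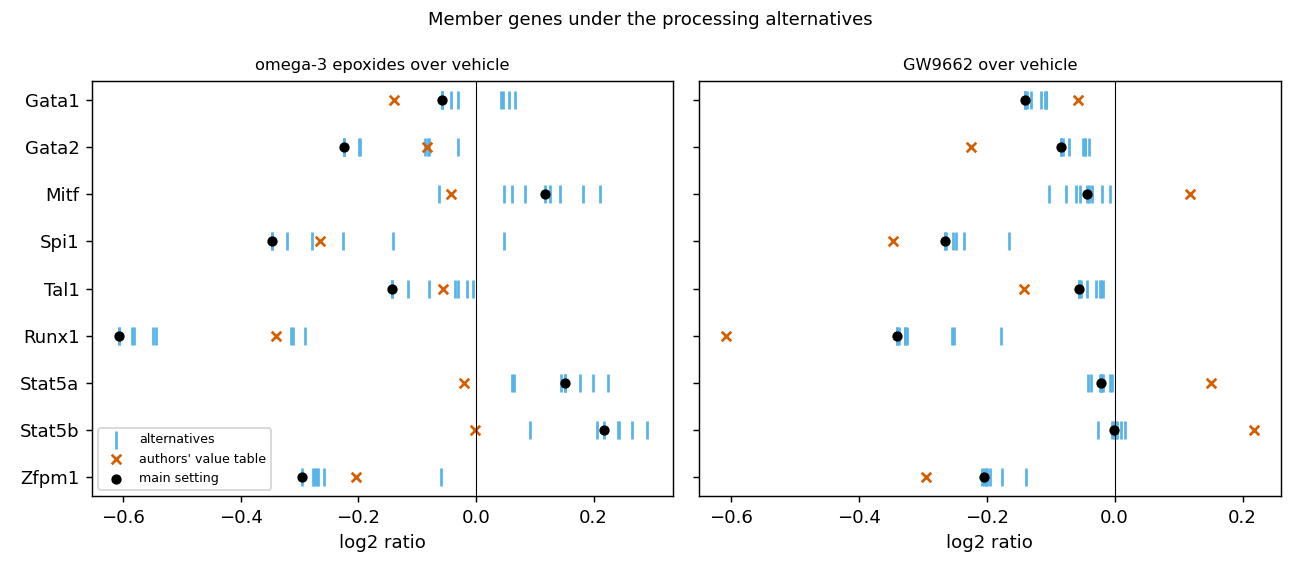
Log2 ratio over vehicle of each of the 9 measured member genes in the main setting (black), under up to 9 alternatives (blue bars) and in the authors' value table with its own labels (crosses). No value reaches 1, which is 2-fold. Runx1 stays below 0 throughout, but every setting reads its brighter probe, alone or in a mean with the other. The other Runx1 probe alone gave 0.03 with epoxides over vehicle and -0.01 with GW9662 over vehicle.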

How the data were processed

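Total RNA of 3 BMMC cultures was read on 1 Agilent design with 60-base probes and Cy3 label. Per the file headers, the deposited processed intensity (Agilent Feature Extraction 11.5.1.1) had background and spatial trend taken off by the scanner software, while the mean and local background intensity are unscaled. The authors' deposited value table holds a ratio, the processed intensity over the 75th percentile of the array, matched to the scanner files within a tolerance of 0.001.

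Log2 levels were set against the 75th percentile of each array. Outlier spots were dropped and copies of a probe averaged. The brightest probe on average over the arrays stood for its gene, which counted as measured when well above background on both arrays. Background genes were named through RefSeq accessions, else by the file. With 1 array a group no test was run, and a call meant at least 2-fold. The technical SD is that of log2 ratios among copies of probes with 5 or more copies. The number of arrays limits the precision.

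Named genes were all members, some of the up to 4 farthest members of each list and some mast cell markers. Chosen for their roles after their values were seen were Pafah2, the markers of other cell types, Csf2rb2, Lyl1, Lmo2, Ldb1, Cbfb, Tfe3, Tfec, Runx2, Runx3, Cebpb, Cebpd, Cebpe, Irf8, Klf1, Cish, Bcl2l1 and Jak2. Farthest genes not described above included Cdkn1a (-0.37), Notch1 (0.37) and Stat3 (-0.34) for epoxides over vehicle. Members and lists were chosen with earlier results of these data known. Calls were tested on simulated data, which cannot show the error between cultures, unknown here with 1 array a group. Alternatives, run with limma 3.58.1 in R 4.3.3 where it applies, were cyclic loess, quantile normalization, normexp with offset 50, the value table, scaling on detected probes, outlier spots kept, averaging a gene's probes, leaving out the uneven band (a choice carried over from earlier work on these values), the GC correction, the band and the correction together, and 1.5-fold for counts. Some single marker genes are not reported here.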

Additional observations from a re-analysis of the deposited data

How the results depend on the processing

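No member was 2-fold apart in any comparison under any alternative. At 1.5-fold, 1 member (Runx1) was apart for epoxides over vehicle in the main setting, but not with normexp, cyclic loess, scaling on detected probes, the mean of its probes, the GC correction or the value table with its own labels. For that comparison the member median of -0.14 became -0.080 with normexp, -0.0045 with quantile normalization, -0.015 with cyclic loess, -0.084 in the value table, 0.047 after the GC correction and -0.049 with the uneven band left out as well. For GW9662 over vehicle the median of -0.08 became -0.046 with cyclic loess and -0.14 in the value table. For epoxides over GW9662 the median of -0.08 became -0.025 with normexp, 0.095 with quantile normalization, 0.022 with cyclic loess, 0.081 in the value table, -0.0024 without the uneven band, 0.10 after the GC correction and 0.013 with both. The value table's values differ because its treated columns hold each other's arrays, and the settings without the band rest on fewer members, because 3 of the members have no probe elsewhere. For the others the cause was not tested. Of 84 values of single members in each comparison, 44, 18 and 42 moved by more than the technical SD, in the order of comparisons above. These counts include the value table with its own labels, where every measured member moved in each comparison. The alternatives for the 4 lists were added after the data were seen. No paired analysis was possible because each group had 1 array. Cebpa gave no ratio, since its signal was not above background.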
